A study of Mus musculus with 21 samples.

Results

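The tamoxifen effect in Lgr5GFP low cells of the mouse stomach corpus was set against the tamoxifen effect in Lgr5GFP negative cells, to find the genes that responded differently in the 2 sorted populations. Of the 21 arrays of the series, 14 enter this contrast, chosen by their titles: tamoxifen low cells (n = 4 arrays), control low cells (n = 3), tamoxifen negative cells (n = 4) and control negative cells (n = 3). The other 7 arrays, of Lgr5GFP high cells, entered the fit only to share the estimate of the spread. For each gene the difference in tamoxifen change is (tamoxifen low minus control low) minus (tamoxifen negative minus control negative), in log2 units. A value below 0 means that the change was lower in low cells than in negative cells. After 1 probe set was kept per gene, 22180 genes were tested, and a gene was called when limma's Benjamini-Hochberg adjusted p over all of them was under 0.05.

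All mice carried a green fluorescent protein signal tied to Lgr5, the gene of a receptor that amplifies Wnt signals, and cells were sorted by flow cytometry into bright, dim and dark fractions. Tamoxifen was given at 0.27 mg per g of body weight, with isolation 24 hours later, and the control titles mark those mice as uninjected. The samples hold no vehicle group, and each number in the titles belongs to 1 treatment, so drug, injection and whatever that number marks cannot be told apart in either population's change. The series design text calls the arrays of a group technical replicates from separate sorting runs, and no label gives the mouse, its age or its strain. The p-values therefore measure the spread between these arrays, which may be technical.

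The corpus gland holds surface pit cells, mucous neck cells, acid-secreting parietal cells, pepsinogen-secreting chief cells at its base, and sparse endocrine and tuft cells. A large part of its endocrine cells are enterochromaffin-like cells, which make and release histamine to drive acid secretion. High doses of tamoxifen are known to injure parietal cells of the mouse stomach. An interaction contrast of this kind cancels what tamoxifen does equally in both fractions, and it keeps genes that moved in 1 of them, moved further in 1 of them, or moved in opposite directions.

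Lgr5, which sets the sorting gate, had log2 levels of 6.54, 7.01, 6.75 and 6.49 in tamoxifen low cells and 7.49, 7.48 and 7.71 in control low cells. The negative arrays gave 4.42, 4.81, 4.56 and 4.58 after tamoxifen and 4.06, 4.34 and 4.82 in controls. Every low array lay above every negative array, as the titles have it, although 1 label of the control negative arrays names them low. The chief cell gene Pgc (pepsinogen C) lay from 13.07 to 13.42 on all 14 arrays, so this marker was high in both fractions under both treatments, close to the highest value in the data, 13.55. A log2 level under 4.16, the 95th percentile of 1105 olfactory receptor genes (median 2.52), is called background here. Within a group, arrays correlated at 0.954 to 0.985. Tamoxifen low array 3 and tamoxifen negative array 4, which share a title number, stood apart from the other arrays of their groups for several genes. Over all genes they did not stand out in limma's array weights, which are lower for arrays that vary more. The weight was 1.23 for tamoxifen low array 3, the highest of its group. For tamoxifen negative array 4 it was 0.86, above the 0.61 of tamoxifen negative array 1. The count of called genes did depend on them. It was 186 with all arrays, 386 without tamoxifen negative array 4 and 111 without tamoxifen low array 3. Leaving both arrays out, a choice made after seeing the data, gave 333 called genes, of which 179 were among the genes called with them.

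Of the 22180 genes, 186 were called (0.839%), 38 with a value above 0 (0.171%) and 148 with a value below 0 (0.667%). At an unadjusted p under 0.05 there were 2048 genes. Of the 186, 126 lay below 0 in low cells and above 0 in negative cells, and 24 lay the other way, a description only, since a call for a large difference favours changes of opposite sign. The median difference over all genes was 0.03.

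The same fit called 1846 genes for tamoxifen in low cells (8.32%), 5.35% of all genes higher and 2.98% lower. In negative cells it called 515 (2.32%), 1.62% higher and 0.703% lower. Sorted by these calls, 77 of the 186 genes were called in low cells alone, of which 53 had a difference below 0. A further 78 were called in negative cells alone, of which 67 had a difference below 0. Here and below, alone means that the other population's change was not called, not that it was absent. Slc18a2, called in low cells alone, had 1.43 in negative cells (limma adjusted p = 0.067). Snap25, called in negative cells alone, had -1.28 in low cells (limma adjusted p = 0.050). A further 16 changed in both populations in opposite directions, and each of the 16 fell in low cells and rose in negative cells. The change was called in both with the same sign for 5 genes, larger in low cells for 3 and larger in negative cells for 2. The remaining 10 were called in neither population on its own. For 24 of the 186 both low groups averaged at background, and for 10 both negative groups did. Of the 38 called genes named by the rule, 13 had at least 1 group mean at background, and the size of a change into or out of background depends on levels that were not measured above it.

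**Figure D1:**
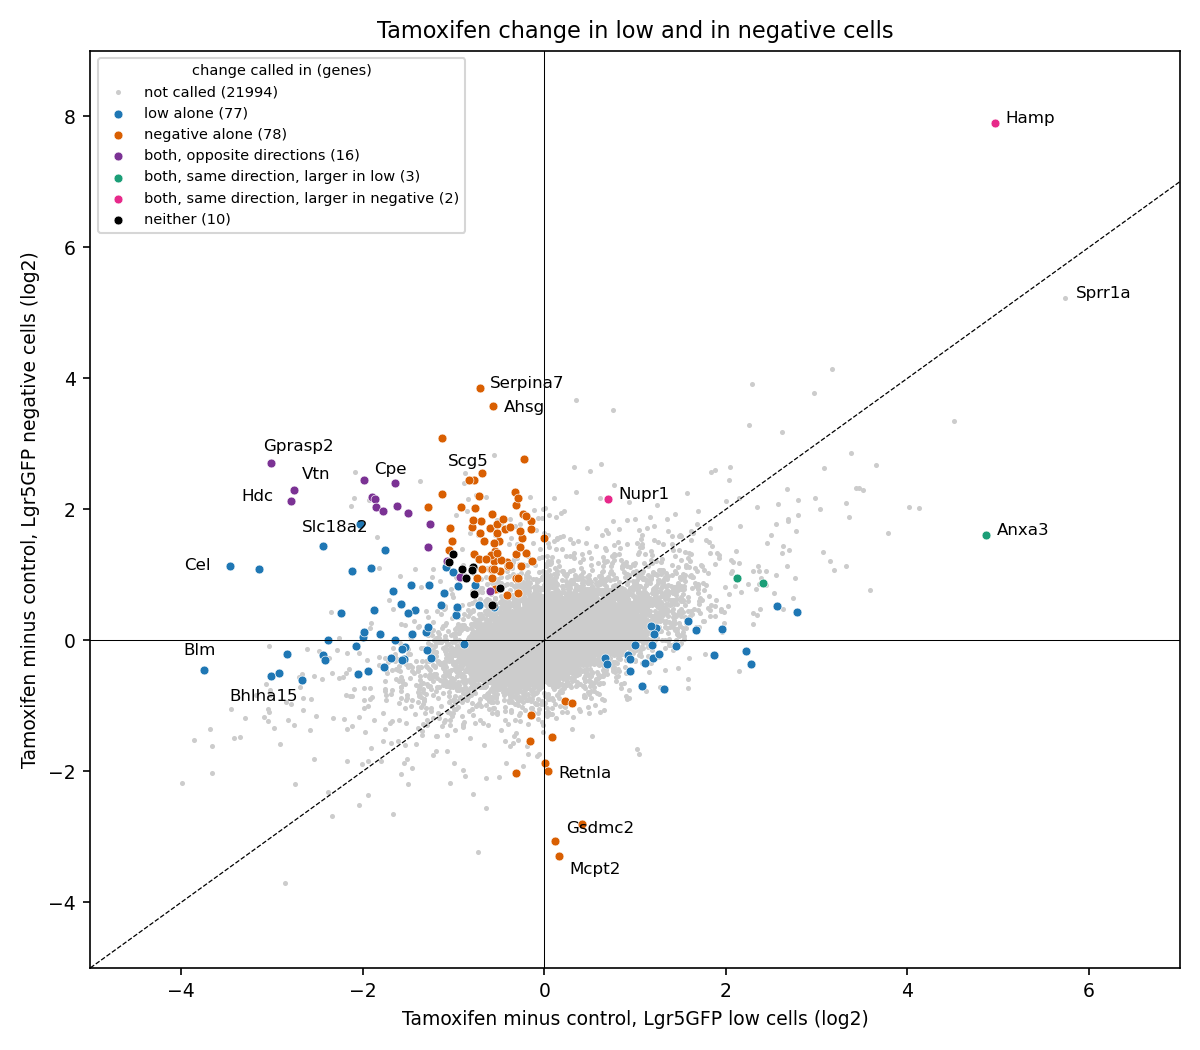
Tamoxifen minus control change in Lgr5GFP negative cells (vertical axis, log2) against that in low cells (horizontal axis, log2) for 22180 genes, each a point. Colours mark the 186 called genes by the population in which the change was called, grey marks genes not called, and the dashed line marks equal change. The 16 genes called in opposite directions lie in the upper left, Anxa3 lies right of the line and Hamp lies above it.

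Genes of endocrine cells had the lowest median of the 32 gene lists examined. Each of the 16 measured genes of an endocrine cell marker list lay below 0, with a median of -2.63 against 0.03 for all genes, a median change of -0.78 in low cells and of 1.52 in negative cells. In the test of the difference 3 of the 16 were called, all lower, against 0.667% of all genes called lower. They were Hdc (histidine decarboxylase, which makes histamine), Slc18a2 (the vesicular monoamine transporter that loads histamine into granules) and Scg5 (the chaperone of a prohormone convertase).

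Hdc had log2 levels of 5.31, 5.32, 4.70 and 5.69 in tamoxifen low cells, against 7.62, 8.40 and 8.10 in control low cells. In negative cells its levels were 10.57, 9.81, 9.68 and 8.72 after tamoxifen, against 7.28, 7.47 and 7.96 in controls. The tamoxifen arrays were all under the controls in low cells and all over them in negative cells. Hdc fell by 2.79 (SE 0.42) in low cells and rose by 2.13 (SE 0.42) in negative cells, a difference of -4.91 (SE 0.59, limma adjusted p = 0.00021). In control mice the 2 fractions had overlapping Hdc levels, and after tamoxifen the lowest negative array was above the highest low array.

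Slc18a2 had 5.59, 5.58, 5.14 and 5.73 in tamoxifen low cells and 6.61, 8.91 and 8.35 in control low cells. Negative cells had 9.68, 10.83, 10.03 and 9.11 after tamoxifen and 8.12, 8.57 and 8.74 in controls. The groups did not overlap within either population, and control low array 1 stood under the other low controls. Its difference was -3.88 (SE 0.57, limma adjusted p = 0.0016), with the change called in low cells (-2.44) and not in negative cells (1.43, limma adjusted p = 0.067). Scg5 had 3.91, 3.92, 3.32 and 5.00 in tamoxifen low cells and 4.29, 4.79 and 5.54 in control low cells, which overlap. Its negative arrays read 7.44, 7.98, 7.76 and 6.84 after tamoxifen and 4.93, 4.91 and 5.36 in controls. The rise of Scg5 in negative cells, 2.44 (SE 0.35), was its only called change, with a difference of -3.28 (SE 0.50, limma adjusted p = 0.0021). Its mean in tamoxifen low cells, 4.04, was at background, so a fall there may be understated and the size of the difference is not exact.

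Other endocrine genes had differences as large that were not called. Chga, the granule protein chromogranin A, had 9.38, 8.71, 7.17 and 9.28 in tamoxifen low cells and 10.45, 11.07 and 10.69 in control low cells. For negative cells the levels were 12.76, 12.73, 12.50 and 11.09 after tamoxifen and 9.94, 10.15 and 10.21 in controls. Its difference was -4.27 (SE 1.02, limma adjusted p = 0.051). With each array left out in turn it was called in 1 of 14 fits, with adjusted p up to 0.15. Without both tamoxifen low array 3 and tamoxifen negative array 4, its lowest in each tamoxifen group, it was -4.17 (adjusted p = 0.037). That removal was chosen after seeing the data. Pcsk1, a prohormone convertase, had -3.80 (adjusted p = 0.054). The hormone genes Ghrl, Sst and Gcg (ghrelin, somatostatin and glucagon) had -2.92, -2.34 and -1.04, with adjusted p of 0.44, 0.51 and 0.77. The fate factors Nkx2-2, Neurod1, Pax6 and Insm1 lay between -0.22 and -0.69.

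The mean log2 level of the 16 genes ran from 4.90 to 6.60 in tamoxifen low cells and from 5.95 to 7.40 in control low cells. In negative cells it ran from 7.05 to 8.49 after tamoxifen and from 6.17 to 6.95 in controls. In these sorted bulk samples, fewer cells of a type and less RNA per cell cannot be told apart, and neither can a type that moved from 1 sorting gate to the other.

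**Figure D2:**
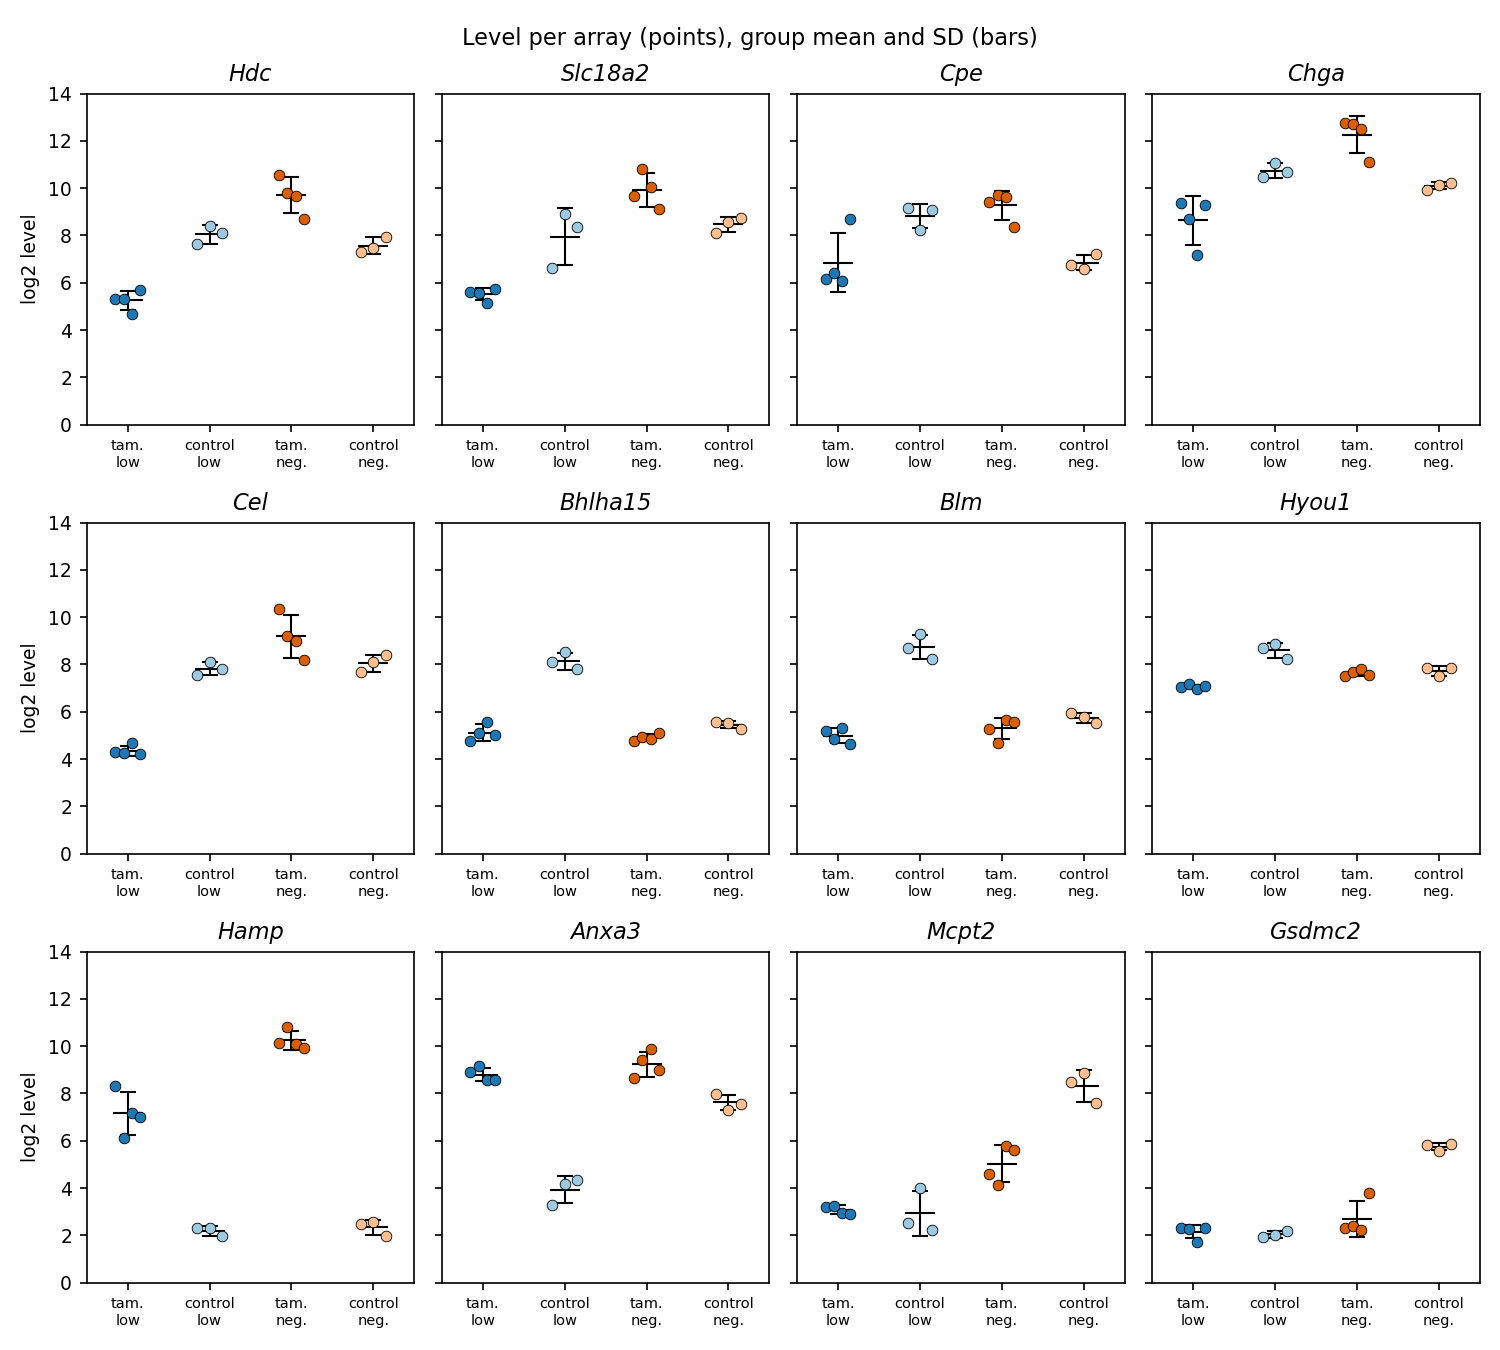
Log2 level (vertical axis) of 12 genes on each array of the 4 groups, from left to right tamoxifen (tam.) low, control low, tamoxifen negative and control negative. Points are arrays (n = 4, 3, 4 and 3), and bars give the group mean and SD. Hdc, Slc18a2 and Cpe are low in tamoxifen low cells and high in tamoxifen negative cells, Bhlha15 and Blm are high in control low cells alone, and Mcpt2 and Gsdmc2 are high in control negative cells.

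By size the first 10 differences below 0 were those of Gprasp2, Vtn, Hdc, Cel, Serpina7, Cpe, Hepacam2, Ceacam10, Ahsg and Agt. Gprasp2, which sorts G protein-coupled receptors to lysosomes, had 4.06, 3.73, 3.20 and 4.41 in tamoxifen low cells and 7.66, 6.24 and 6.67 in control low cells. In negative cells Gprasp2 had 8.67, 9.14, 8.49 and 6.97 after tamoxifen and 5.71, 5.40 and 5.75 in controls. It fell by 3.01 in low cells, where 3 of its 4 tamoxifen arrays were at background, and rose by 2.70 in negative cells, a difference of -5.71 (SE 0.86, limma adjusted p = 0.0018).

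Cpe (carboxypeptidase E, which trims prohormones) had 6.17, 6.42, 6.08 and 8.70 in tamoxifen low cells, against 9.14, 8.25 and 9.10 in control low cells. Tamoxifen low array 4 was the only one of its group inside the range of the controls. In negative cells Cpe had 9.42, 9.70, 9.63 and 8.38 after tamoxifen and 6.73, 6.59 and 7.20 in controls. Its difference was -4.43 (SE 0.70, limma adjusted p = 0.0031), and it was -5.05 without the low array 4. Ptf1a, a transcription factor known from the pancreas, fell by 1.50 in low cells to background and rose by 1.95 in negative cells, a difference of -3.45 (SE 0.34, limma adjusted p = 2.4e-05).

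Of these 10, Vtn, Serpina7, Ahsg and Agt encode proteins known from blood plasma, a grouping made after their values were seen and not tested. Vtn (vitronectin, an adhesive glycoprotein) had 5.97, 5.45, 4.49 and 5.95 in tamoxifen low cells and 8.44, 8.22 and 8.004 in control low cells. In negative cells Vtn had 11.27, 11.44, 10.83 and 9.24 after tamoxifen and 8.24, 8.32 and 8.64 in controls. The difference was -5.05 (SE 0.58, limma adjusted p = 0.00014), from a fall of 2.76 in low cells and a rise of 2.30 in negative cells. Serpina7, which encodes a thyroxine-binding globulin, had 2.81 to 3.39 in tamoxifen low cells and 3.45 to 4.18 in control low cells, with both means at background. Its levels were 8.49, 8.08, 7.63 and 7.47 in tamoxifen negative cells and 3.73, 3.78 and 4.72 in control negative cells. The mean of its negative controls, 4.07, was at background too, so tamoxifen negative cells were the only group with a mean above it. The fitted rise of 3.85 (SE 0.26) in negative cells and the difference of -4.56 (SE 0.37, limma adjusted p = 1.5e-06) are taken against levels at background, and their sizes are not exact.

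Ahsg (fetuin-A, a calcium phosphate carrier) rose by 3.58 (SE 0.42) in negative cells, with a difference of -4.14 (SE 0.60, limma adjusted p = 0.0015). Agt (angiotensinogen) fell by 1.89 in low cells and rose by 2.20 in negative cells, and its difference was -4.09 (SE 0.60, limma adjusted p = 0.0016). Cel, a bile salt-activated lipase known from the exocrine pancreas, had 4.29, 4.25, 4.66 and 4.22 in tamoxifen low cells and 7.54, 8.09 and 7.82 in control low cells. In negative cells Cel had 10.36, 9.22, 8.99 and 8.19 after tamoxifen and 7.66, 8.11 and 8.38 in controls, which overlap. Its fall of 3.46 (SE 0.37) was called in low cells alone, and its difference was -4.59 (SE 0.52, limma adjusted p = 0.00014).

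Hepacam2, of the immunoglobulin superfamily, fell by 3.14 (SE 0.53) in low cells alone, with a difference of -4.22 (SE 0.75, limma adjusted p = 0.0079). Ceacam10 had a difference of -4.21 (SE 0.89, limma adjusted p = 0.025) from a rise of 3.09 in negative cells, and its call was the least stable of these 10. It was lost without any 1 of 9 arrays, with adjusted p up to 0.092 without control low array 1.

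Further called genes outside the naming rule are given here as single values, named after these were seen, with no fixed list or test behind the choice. Snap25, a membrane fusion protein, had a difference of -3.31, and the vesicle protein Syp had -2.05. The calcium sensors Syt5 and Syt7 had -2.18 and -1.77, and the vesicle priming factors Unc13a and Rims2 had -1.02 and -1.89. Pam, which amidates peptide hormones, had -2.21, and Ptprn2, a dense-core granule protein, had -2.13. Cckbr (the gastrin receptor) had -2.95 and Sstr2 (a somatostatin receptor) had -1.49. Mboat4, the enzyme that acylates ghrelin, had -2.51, although Ghrl itself was not called. Sytl2, which acts in granule transport, was called the other way, at 2.38.

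The other genes called in opposite directions in both populations were Peg3, Pappa2, Prox1, St18, Insrr, Gucy2c, Meg3, Rian, Aplp1 and Hcar1. Peg3, Meg3 and Rian are imprinted genes, and their differences were -4.04, -2.71 and -2.28. Prox1 and St18 encode transcription factors, with -3.89 and -3.76. Insrr, a receptor related to the insulin receptor, had -3.68, and Pappa2, a protease of insulin-like growth factor binding proteins, had -4.02.

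**Figure D3:**
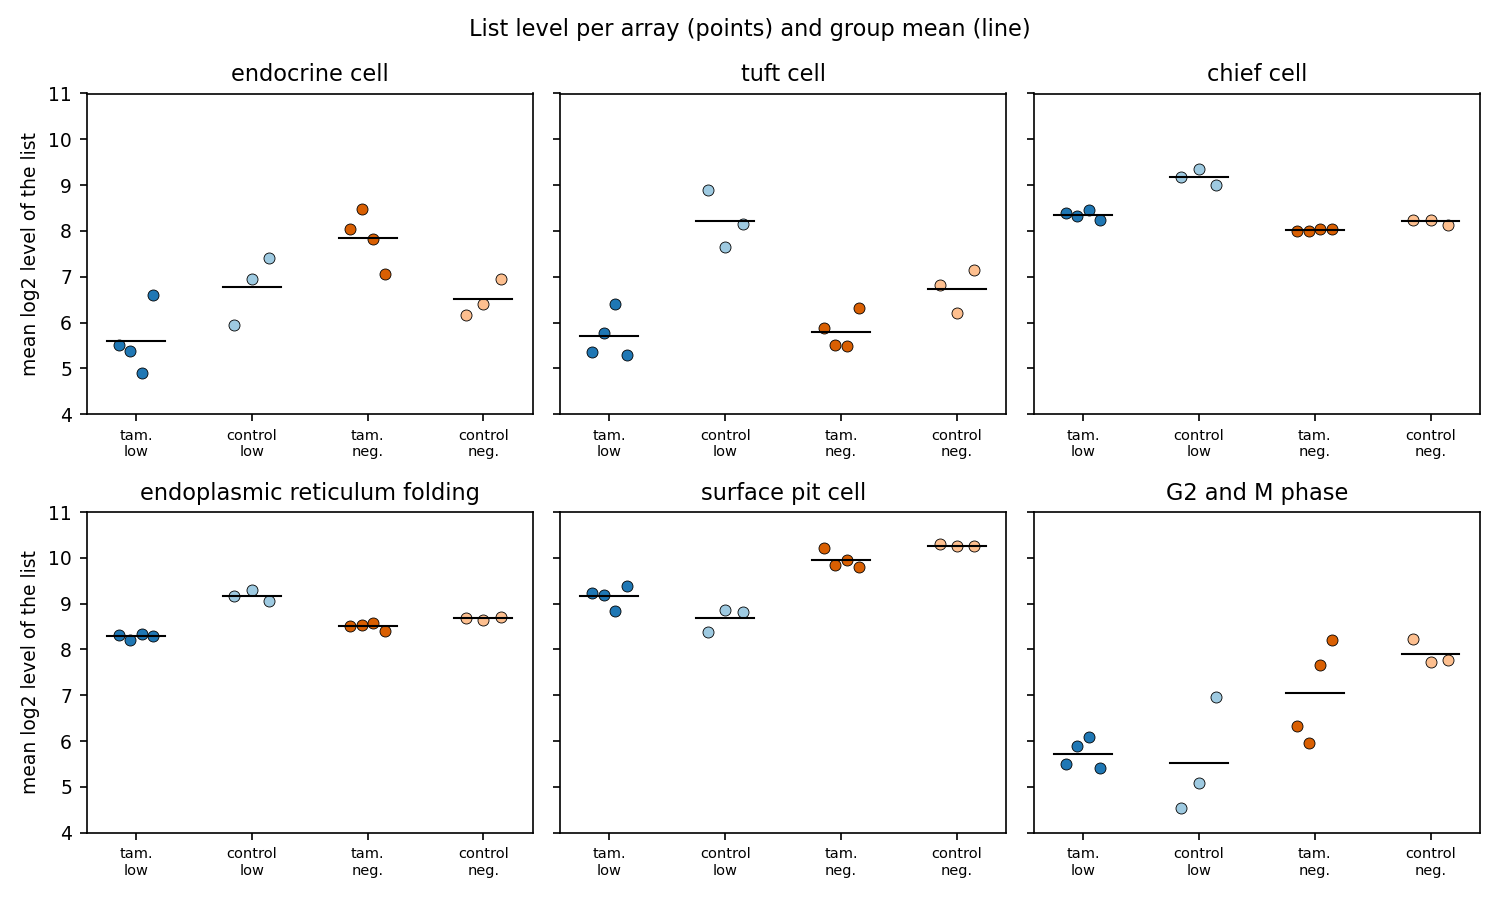
Mean log2 level of the measured genes of 6 lists (vertical axis) on each array, with points for arrays and a line for the group mean, in the order tamoxifen (tam.) low, control low, tamoxifen negative and control negative. The group mean of the endocrine cell list is lower after tamoxifen in low cells and higher in negative cells, that of the endoplasmic reticulum folding list is lower after tamoxifen mainly in low cells, and control low array 3 stands high for the G2 and M phase list.

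A second group of genes fell in low cells and was not called in negative cells. It held genes of protein folding in the endoplasmic reticulum (ER), where secretory cells such as chief cells fold their zymogens. Each of the 19 measured genes of an ER folding list lay below 0, with a median of -0.60 against 0.03 for all genes. In low cells 13 of the 19 fell, against 2.98% of all genes, and none rose. None of the 19 passed the test in negative cells in either direction, where 2.32% of all genes did. There, 7 had an unadjusted p under 0.05, and 15 of the 19 lay below 0. The median change was -0.23 in negative cells, against -0.85 in low cells. The list level ran from 8.40 to 8.57 in tamoxifen negative cells and from 8.64 to 8.71 in control negative cells. It ran from 8.21 to 8.33 in tamoxifen low cells and from 9.05 to 9.31 in control low cells. The list level was thus lower after tamoxifen in both populations, and further in low cells. The difference itself was called for 4, all lower, against 0.667% of all genes: Hyou1, Dnajc3, Sel1l and Ero1b.

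Hyou1, an ER chaperone, had 7.03, 7.16, 6.97 and 7.10 in tamoxifen low cells and 8.71, 8.85 and 8.24 in control low cells. In negative cells it had 7.51, 7.68, 7.81 and 7.57 after tamoxifen and 7.87, 7.50 and 7.85 in controls, which overlap. It fell by 1.53 (SE 0.16) in low cells, and the difference was -1.44 (SE 0.23, limma adjusted p = 0.0031). Ero1b, an oxidase that drives disulfide formation, had 7.47, 6.90, 7.38 and 6.70 in tamoxifen low cells and 9.71, 9.81 and 9.12 in control low cells. Its negative groups lay from 6.49 to 7.20 after tamoxifen and from 7.01 to 7.23 in controls. After tamoxifen the low and negative levels of Ero1b overlapped, and its difference was -2.20 (SE 0.45, limma adjusted p = 0.021).

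Dnajc3, a co-chaperone, had a difference of -0.82 (SE 0.18, limma adjusted p = 0.036). Sel1l, of the degradation complex for misfolded proteins, had -1.47 (SE 0.32, limma adjusted p = 0.029). With each array left out in turn, Hyou1 kept its call in all 14 fits. Ero1b kept it in 8, Dnajc3 in 3 and Sel1l in 2. Chosen after their values were seen, other called genes of the secretory route that fell in low cells alone were Derl3 (degradation of misfolded proteins) at -2.42, Tram1 (translocation) at -0.98, Txndc11 at -1.14 and Tmed3 (transport to the Golgi) at -1.26. Sycn, a zymogen granule protein, had -1.36. Not called were the main chaperone genes Hspa5, Hsp90b1, Canx and Pdia3, at -0.08, -0.48, -0.27 and -0.03.

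The promoters of Derl3, Dnajc3 and Ero1b are shown because each holds the ER stress response element, a site class known to bind the factors ATF6 and XBP1 next to a CCAAT box. Each line gives the 250 bases before the transcription start from RefSeq on GRCm38.p6, 5′ to 3′ along the gene, with the element in capitals.
Derl3 (chr10:75893148-75893397, plus strand): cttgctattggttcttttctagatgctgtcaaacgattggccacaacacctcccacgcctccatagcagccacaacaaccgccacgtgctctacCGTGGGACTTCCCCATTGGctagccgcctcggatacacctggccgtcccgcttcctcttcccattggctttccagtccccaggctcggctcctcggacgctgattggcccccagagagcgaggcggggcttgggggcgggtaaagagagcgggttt
Dnajc3 (chr14:118937682-118937931, plus strand): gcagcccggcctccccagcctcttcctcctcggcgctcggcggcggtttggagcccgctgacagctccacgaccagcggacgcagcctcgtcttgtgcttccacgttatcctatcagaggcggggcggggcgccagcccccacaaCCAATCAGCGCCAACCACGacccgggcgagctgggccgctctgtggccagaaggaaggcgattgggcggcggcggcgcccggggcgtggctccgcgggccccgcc
Ero1b (chr13:12565633-12565882, plus strand): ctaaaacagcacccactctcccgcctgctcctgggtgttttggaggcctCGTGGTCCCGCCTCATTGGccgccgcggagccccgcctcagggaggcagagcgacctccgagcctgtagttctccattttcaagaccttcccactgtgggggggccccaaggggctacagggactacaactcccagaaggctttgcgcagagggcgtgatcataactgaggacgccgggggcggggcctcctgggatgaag

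The element was searched as CCAAT and CCACG with 9 bases of any kind between them, on both strands of the RefSeq windows of 300 bases, from 250 before to 50 after the start. In Dnajc3 it runs along the gene, and in Derl3 and Ero1b it lies on the opposite strand. It was in 37 of the 27025 genes with a window (0.137%) and in the promoters of 3 of the 39 genes with a window that fell in low cells alone. Of the ER folding list it was in 8 of 16 genes with a window, among them Hspa5, Hsp90b1 and Canx, whose differences were not called. None of the genes called in negative cells alone that rose there, nor of those called in opposite directions, held it (0 of 50 and 0 of 12). At 0.137% of all genes, sets of these sizes would nearly always hold none, so these counts cannot set the classes apart. A match of letters is a description and does not show binding in these cells.

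The cyclic AMP response element, searched as TGACGTCA on both strands, was in 5 of the 14 endocrine list genes with a window (Chgb, Pax6, Pcsk1, Slc18a2 and Sst), against 2.03% of all genes with a window. It was in 2 of the 39 genes that fell in low cells alone, 2 of the 50 that rose in negative cells alone and 2 of the 12 called in opposite directions, the last being Meg3 and Peg3. None of the 16 ER folding genes held it, which at 2.03% of all genes a set of that size would often show.

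Of 12 chief cell markers, 11 lay below 0 (median -0.57). The 2 called were Bhlha15 and Dnajc3, both lower, against 0.667% of all genes called lower. Bhlha15 (MIST1), a transcription factor of mature secretory cells, had 4.75, 5.12, 5.59 and 5.02 in tamoxifen low cells and 8.08, 8.51 and 7.81 in control low cells. Its negative groups had 4.76, 4.92, 4.86 and 5.12 after tamoxifen and 5.57, 5.51 and 5.29 in controls. The low controls stood apart from the other 3 groups, which lay within 4.75 to 5.59. Its difference was -2.48 (SE 0.51, limma adjusted p = 0.023), with a fall of 3.02 (SE 0.36) in low cells. Of the secreted products, Cblif (gastric intrinsic factor) had -0.42 and was not called. Pgc, at the top of the measured range, and Lipf (gastric lipase), with all 4 group means at background, could not be seen to change.

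Blm, a DNA helicase that resolves recombination intermediates, was likewise high in control low cells alone. It had 5.20, 4.85, 5.31 and 4.62 in tamoxifen low cells and 8.71, 9.27 and 8.24 in control low cells. The negative arrays gave 5.27, 4.70, 5.67 and 5.56 after tamoxifen and 5.95, 5.79 and 5.53 in controls. Blm fell by 3.74 (SE 0.27) in low cells, and its difference was -3.29 (SE 0.38, limma adjusted p = 0.00016). It was the 1 called gene of an S phase list of 19, against 0.667% of all genes called lower. The other 18 lay above 0 (list median 1.04). In low cells 7 of the 19 rose, against 5.35% of all genes, among them Mcm4 by 1.83 and Pcna by 0.91. None of the 19 passed the test in negative cells (1 at an unadjusted p under 0.05). Yet the differences of the 7 were not called (1.45 for Mcm4 and 1.14 for Pcna). The list level ran from 6.21 to 6.84 in tamoxifen low cells and from 5.38 to 6.37 in control low cells. Control low array 3 was the highest control, inside the tamoxifen range.

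The 18 G2 and M phase genes all lay above 0, with a median of 1.16, and none was called in the difference, in low cells or in negative cells. At an unadjusted p under 0.05 there were 0, 0 and 2 of them. Their mean level ran from 5.42 to 6.08 in tamoxifen low cells and from 4.53 to 6.97 in control low cells, where array 3 was the high one. Among negative arrays it ran from 5.95 to 8.21 after tamoxifen and from 7.73 to 8.22 in controls. Mki67, the proliferation marker, had 8.12 on control low array 3, above the tamoxifen low arrays (6.14 to 6.73) and the other 2 low controls (5.18 and 5.79).

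Hamp encodes hepcidin, the hormone that closes the iron exporter ferroportin. It rose in both populations and further in negative cells. Its levels were 8.32, 6.13, 7.17 and 7.03 in tamoxifen low cells and 2.31, 2.31 and 1.97 in control low cells. In negative cells they were 10.13, 10.82, 10.09 and 9.94 after tamoxifen and 2.50, 2.57 and 1.99 in controls. Both control groups were at background, so each rise is a change out of background. The rise was 4.97 (SE 0.39) in low cells and 7.89 (SE 0.39) in negative cells, a difference of -2.93 (SE 0.55, limma adjusted p = 0.013). Without control negative array 3 the adjusted p was 0.052.

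Nupr1, a stress-induced chromatin protein, rose by 0.70 (SE 0.22) in low cells and by 2.16 (SE 0.22) in negative cells, a difference of -1.45 (SE 0.31, limma adjusted p = 0.025). It had 12.16, 11.82, 11.82 and 12.00 in tamoxifen low cells and 11.21, 11.50 and 11.02 in control low cells. Negative cells had 11.63, 11.77, 11.40 and 10.72 after tamoxifen and 9.20, 9.48 and 8.99 in controls. In controls Nupr1 was higher in low than in negative cells, and no groups overlapped within either population.

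Larger rises in low cells were fewer. Anxa3, a calcium-dependent membrane-binding protein, had 8.90, 9.15, 8.57 and 8.58 in tamoxifen low cells and 3.27, 4.18 and 4.34 in control low cells. For negative cells the levels were 8.65, 9.43, 9.88 and 8.98 after tamoxifen and 7.98, 7.32 and 7.57 in controls. After tamoxifen both populations reached overlapping levels, from controls whose mean was at background in low cells and well above it in negative cells. Anxa3 rose by 4.87 (SE 0.32) in low cells and by 1.61 (SE 0.32) in negative cells, a difference of 3.26 (SE 0.45, limma adjusted p = 0.0010).

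Zyx (zyxin, of focal adhesions) and Sdcbp2 (a PDZ scaffold protein) also rose in both populations and further in low cells. The difference was 1.18 (SE 0.25, limma adjusted p = 0.027) for Zyx. It was 1.54 (SE 0.33, limma adjusted p = 0.025) for Sdcbp2. Both were higher in negative than in low controls and closer after tamoxifen. The order held for Sdcbp2, with means after tamoxifen of 8.88 in low and 9.56 in negative cells. It turned round for Zyx, with 8.79 in low and 8.40 in negative cells.

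Mmp7, the matrix protease matrilysin, had 6.58, 6.20, 5.18 and 6.59 in tamoxifen low cells and 3.57, 3.61 and 3.56 in control low cells. In negative cells Mmp7 lay from 3.72 to 4.37 after tamoxifen and from 3.45 to 3.60 in controls, with both means at background, as was that of control low cells. Its difference was 2.04 (SE 0.43, limma adjusted p = 0.025). Mmp7 and Anxa3 were the 2 called members of a regeneration and injury list of 15 genes, both higher, against 0.171% of all genes. Of the 15, 9 rose in low cells and 7 in negative cells, against 5.35% and 1.62% of all genes. Sprr1a, a cornified envelope protein, rose by 5.74 in low cells and by 5.22 in negative cells, and its difference of 0.52 (SE 0.49, limma adjusted p = 0.87) was not called, with a 95% interval from -0.51 to 1.54.

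Others that rose in low cells alone were Sytl2 (a Rab27 effector in granule transport), Cyp3a13 (a cytochrome P450), Rflnb (an actin cross-linking regulator) and Oit1, with differences of 2.38, 2.35, 2.09 and 2.06 (limma adjusted p from 0.013 to 0.046). For Sytl2, Rflnb and Oit1 the low controls were the lowest of the 4 groups, and the tamoxifen low arrays stayed under every negative array. Outside the naming rule, chosen after seeing their values, Cct4 and Cct8, subunits of a cytosolic chaperonin, had 1.15 and 1.08. The chloride channel Ano1 had 1.79.

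Among genes called in negative cells alone, 11 of 78 had a difference above 0, and each of these fell in negative cells and was not called in low cells. Mcpt2, a mast cell protease, had 3.22, 3.26, 2.95 and 2.93 in tamoxifen low cells and 2.53, 4.01 and 2.24 in control low cells, all at background. In negative cells it had 4.59, 4.15, 5.79 and 5.59 after tamoxifen and 8.50, 8.87 and 7.58 in controls. It fell by 3.29 (SE 0.41) in negative cells, and its difference was 3.45 (SE 0.57, limma adjusted p = 0.0051).

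Cpa3, the mast cell carboxypeptidase, fell by 1.88 (SE 0.27) in negative cells, with a difference of 1.88 (SE 0.38, limma adjusted p = 0.022), and it too was at background in low cells. Tpsb2, a mast cell tryptase chosen after its value was seen, had 1.57. In an immune cell list of 16 genes, Mcpt2 and Cpa3 were the 2 called, both higher, against 0.171% of all genes called higher. Of the 16, 7 lay above 0 and 9 below (median -0.04). The list level ran from 3.72 to 3.95 in tamoxifen low cells and from 3.48 to 3.94 in control low cells. It ran from 4.27 to 5.08 in tamoxifen negative cells and from 4.52 to 4.90 in control negative cells. For these genes the difference restates the fall in negative cells, since a gene at background in low cells could not be seen to fall there.

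The same holds for Gsdmc2 and Gsdmc3, gasdermin genes of the epithelium, and for Retnla, a resistin-like secreted protein. Gsdmc2 had 2.31, 2.29, 1.73 and 2.33 in tamoxifen low cells and 1.92, 2.02 and 2.18 in control low cells. The negative arrays gave 2.32, 2.39, 2.21 and 3.81 after tamoxifen and 5.81, 5.59 and 5.86 in controls. It fell by 3.07 (SE 0.28) to background in negative cells, with a difference of 3.19 (SE 0.40, limma adjusted p = 0.00030). Gsdmc3 had a difference of 3.22 (SE 0.48, limma adjusted p = 0.0018) and Retnla one of 2.05 (SE 0.26, limma adjusted p = 0.00042). The gasdermin C genes are close copies, and their probe sets may share signal.

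Several lists moved on 1 side in the median without any called difference. All 13 tuft cell genes lay below 0 (median -1.67), of which 10 fell in low cells, against 2.98% of all genes. None was called in negative cells or in the difference, with 6 at an unadjusted p under 0.05 in each. Dclk1, a tuft cell marker, fell by 3.66 (SE 0.53) in low cells and had -1.62 (SE 0.53, limma adjusted p = 0.15) in negative cells. Its difference of -2.04 (SE 0.75, limma adjusted p = 0.32) was not called. The tuft list level ran from 5.29 to 6.41 in tamoxifen low cells and from 7.65 to 8.89 in control low cells, against 5.48 to 6.31 and 6.22 to 7.16 in tamoxifen and control negative cells.

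All 14 interferon response genes lay above 0 (median 0.70) and 17 of 18 ribosome biogenesis genes did (median 0.59). In low cells 7 and 13 of them rose (5.35% of all genes), and in negative cells 1 and 0 did (1.62% of all genes). No difference was called in either list (2 and 8 at an unadjusted p under 0.05). Surface pit cell genes had a median of 0.95, led by Mucl3 at 2.62 (adjusted p = 0.062) and the mucin gene Muc5ac at 2.31 (adjusted p = 0.25). Muc5ac had 6.84 to 8.47 in tamoxifen low cells and 5.48 to 7.07 in control low cells, which overlap, against 9.98 to 10.80 and 11.001 to 11.21 in tamoxifen and control negative cells.

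Of 17 parietal cell genes 7 fell in low cells (2.98% of all genes did) and 4 in negative cells (0.703%). Their median changes were -1.34 and -0.72, with a median difference of -0.004. Atp4a and Atp4b, subunits of the proton pump, had differences of 0.50 (SE 0.64) and 0.42 (SE 0.92), with 95% intervals from -0.83 to 1.83 and from -1.50 to 2.34. The 1 called of the 17, against 0.667% of all genes called lower, was Aqp4, the basolateral water channel, at -1.64 (SE 0.37, limma adjusted p = 0.035). It had 4.64, 4.30, 4.66 and 3.91 in tamoxifen low cells and 6.90, 5.65 and 5.51 in control low cells, while every negative array lay between 4.11 and 4.41. Both negative means, 4.26, were close to background (4.16), so Aqp4 could hardly be seen to fall there. With each array left out in turn, Aqp4 kept its call in 5 of 14 fits. Mucous neck cell genes had a median of 0.06, with medians of -1.03 in low cells and -1.02 in negative cells. Muc6 had 0.48 and Tff2 -0.44, neither called. No gene of the fibroblast and smooth muscle, endothelial or squamous lists was called in the difference (0, 1 and 1 at an unadjusted p under 0.05).

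**Figure D4:**
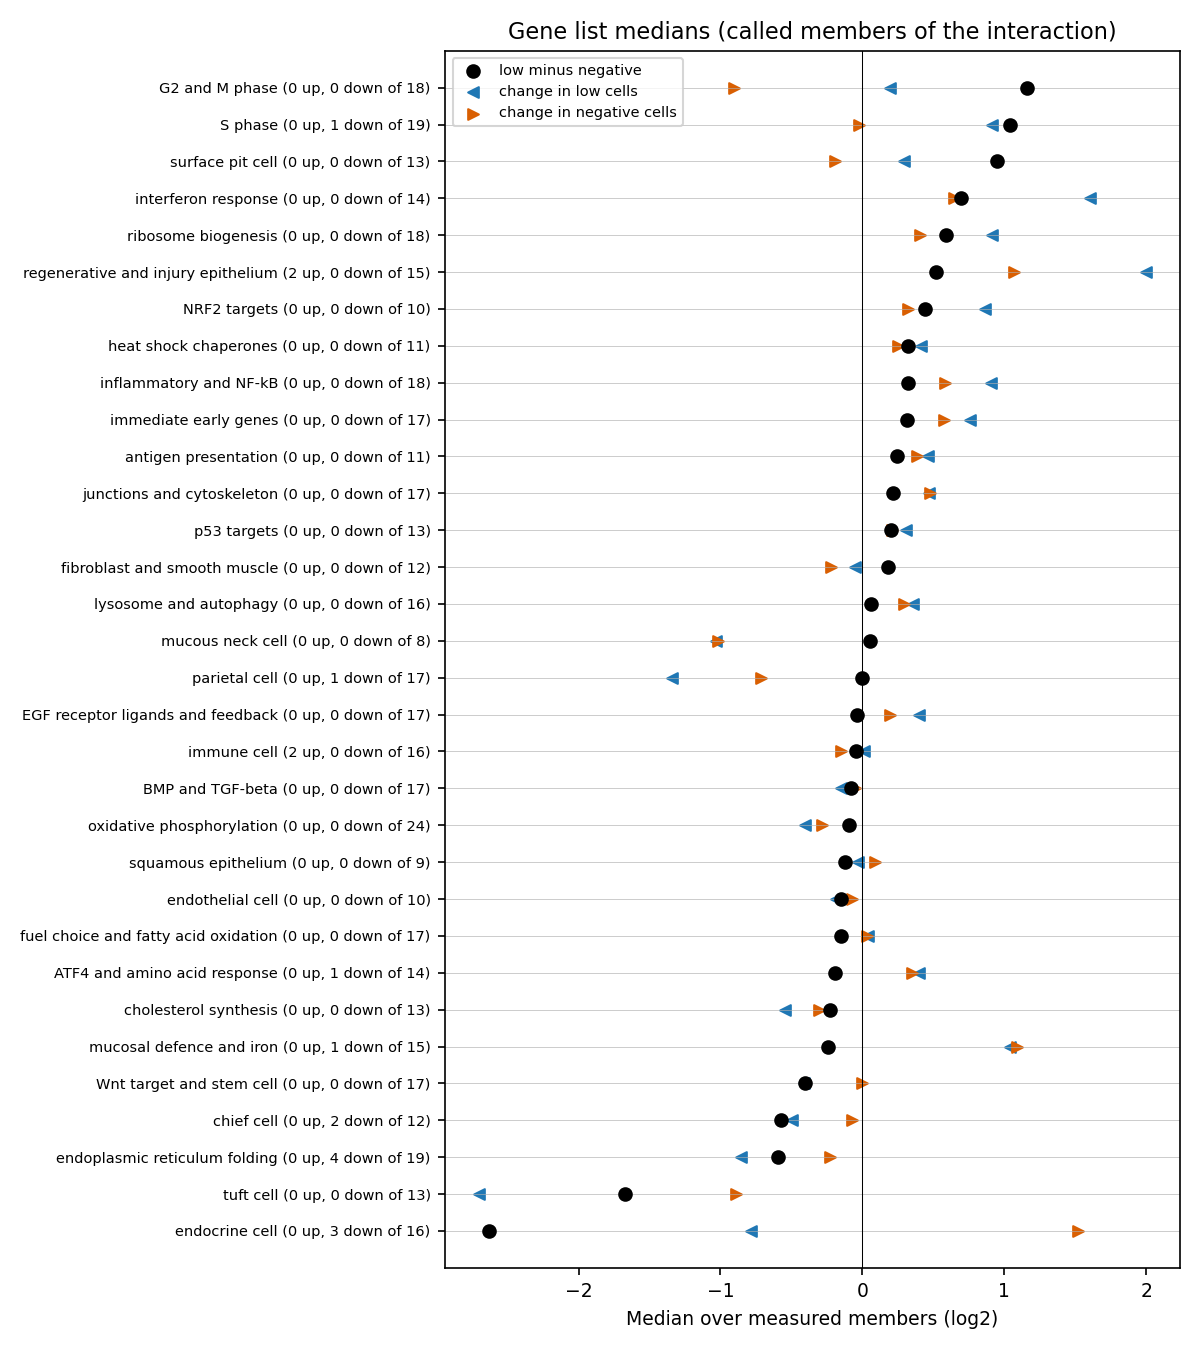
Median over the measured members of each of 32 gene lists (rows) of the difference in tamoxifen change (black circles) and of the change in low cells (blue) and in negative cells (orange), in log2 units. Row labels give the members whose difference was called up or down. The endocrine cell list lies lowest at -2.63 and the G2 and M phase list highest at 1.16.

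Of the fixed panel, Sostdc1, a secreted BMP and Wnt antagonist, fell by 3.68 (SE 0.41) in low cells and had -1.35 (SE 0.41, limma adjusted p = 0.10) in negative cells. Its difference of -2.33 (SE 0.58) had an adjusted p of 0.065. Lgr5 fell by 0.86 (SE 0.21) in low cells, and its difference of -1.05 (SE 0.29) had an adjusted p of 0.11, where the gate on its reporter limits its range. Pdk4, a brake on glucose oxidation, rose in both populations, by 2.97 and 3.78. Esr1, an estrogen receptor gene and so a target of tamoxifen, lay from 3.67 to 4.34 on all 14 arrays, about background, with a difference of -0.09. Ptprc, the pan-leukocyte marker, fell by 2.67 in low cells (limma adjusted p = 0.021). Its difference of -2.16 (adjusted p = 0.51) was not called. Gkn1, a pit cell product, had a difference of 1.01 (adjusted p = 0.77).

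Of the 10 genes called in neither population on its own, the 3 with the smallest adjusted p, a predicted gene left out, were Cyp4v3 at -2.25, Rap1gap2 at -1.81 and Selenom at -1.87. In each the change lay below 0 in low cells and above 0 in negative cells. F2 (prothrombin), Sstr2, Syn1 and the imprinted Peg13 were among the other 7.

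The difference can also be read within the arrays that share a title number, as low minus negative on the same number, with 3 such pairs for each treatment. These are the same arrays on which the genes were called, so the paired values are a description and add no support. Hdc had -4.50, -4.36 and -4.02 in the tamoxifen pairs and 0.34, 0.94 and 0.14 in the control pairs. Hyou1 had -0.65, -0.64 and -0.60 in the tamoxifen pairs and 0.84, 1.35 and 0.39 in the control pairs. With 3 pairs a side no exact permutation test can go under 0.10, so none is given.

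**Figure D5:**
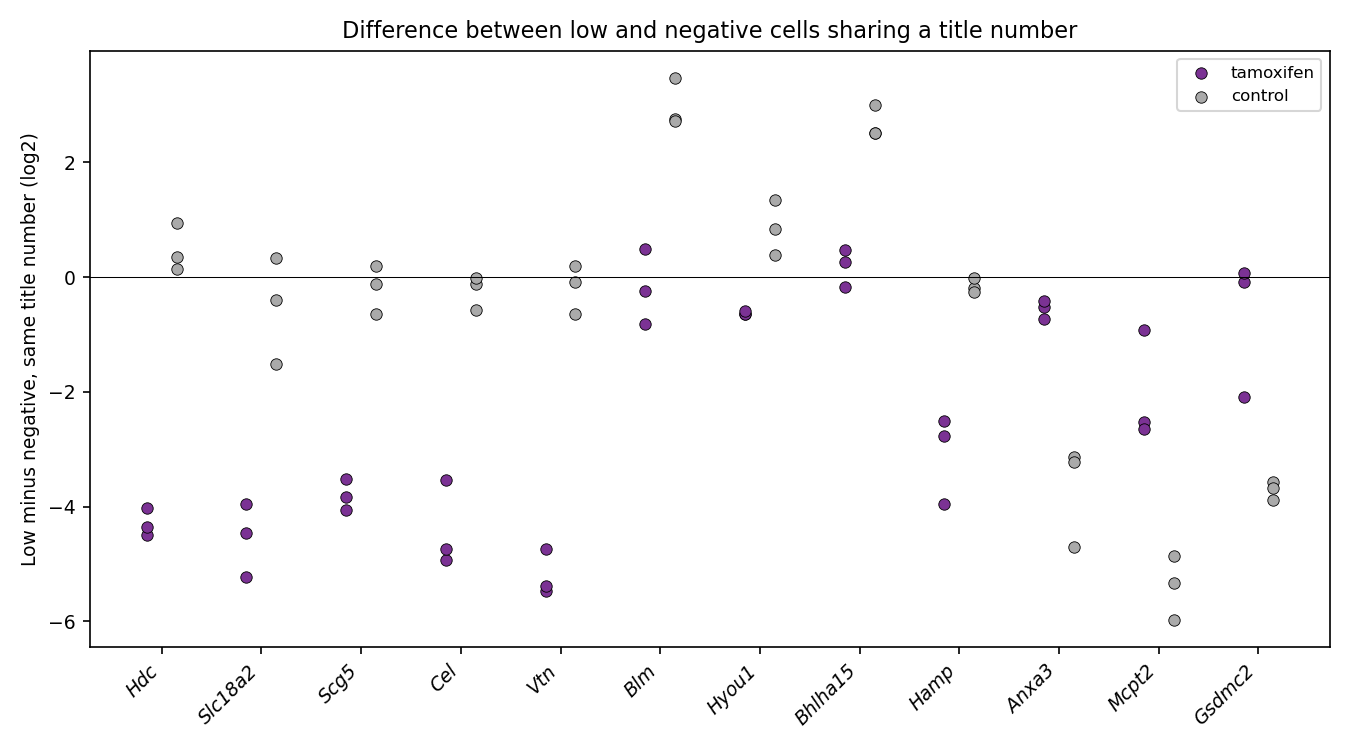
Low minus negative log2 difference (vertical axis) of 12 genes on arrays that share a title number, with 3 tamoxifen pairs (purple, left) and 3 control pairs (grey, right) as points. The tamoxifen pairs of Hdc lie from -4.50 to -4.02 and its control pairs from 0.14 to 0.94, and all 12 genes were called on these same arrays.

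The number of calls depended on single arrays. Without control negative array 1, 2 or 3 it was 71, 73 or 73, and without control low array 1 or 2 it was 86 or 82. Without tamoxifen low array 1, 2 or 3 it was 116, 110 or 111, and without tamoxifen negative array 1, 2 or 3 it was 110, 98 or 110. It was 386 without tamoxifen negative array 4. Without tamoxifen low array 4 or control low array 3 it stayed within 1.5 times, at 167 and 202, but 76 of the 202 lay above 0. The sign held in every such fit for each of the 186 genes, and 57 were called in all 14 fits, among them 15 of the 16 genes called in opposite directions.

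Of the 38 called genes named by the rule, 19 were called in all 14 fits. They were Gprasp2, Vtn, Hdc, Cel, Serpina7, Cpe, Hepacam2, Ahsg, Agt, Mcpt2, Anxa3, Gsdmc2, Gsdmc3, Retnla, Slc18a2, Scg5, Hyou1, Blm and Ptf1a. Hamp kept its call in 13, Rflnb in 12, Cpa3 in 11, Bhlha15 and Ero1b in 8, and Mmp7, Zyx and Sdcbp2 in 6. Ceacam10, Nupr1 and Aqp4 kept it in 5, Sytl2 in 4, Dnajc3, Cyp4v3 and Rap1gap2 in 3, and Sel1l, Cyp3a13, Oit1 and Selenom in 2. Bhlha15 reached an adjusted p of 0.078 without control low array 2, Ero1b 0.074 without the same array, and Mmp7 0.077 without control negative array 2. The adjusted p of Sel1l rose to 0.10, that of Dnajc3 to 0.13 and that of Oit1 to 0.15.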

How the data were processed

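RNA of the sorted cells was amplified, labelled with biotin and hybridised, per the labels' protocols. The deposited values are log2 probe set signals that the authors made on all 21 arrays, with RMA, oligo, limma 3.26.8 and R 3.2.3 named in the submitters' processing notes. The values run from 0.958 to 13.55 and no genome build is given in the sources used here. Of 41345 probe sets 23521 name exactly 1 gene, 1814 name several and 16010 are unnamed here; for 1082 genes the probe set with the highest mean was kept.

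Group means of 6 groups were fitted with limma 3.58.1 (lmFit, eBayes, R 4.3.3, 15 residual and 5.27 prior degrees of freedom, two-sided, no filter on level). Named genes were the 10 largest values each way among called genes above background, leaving out predicted and receptor-family genes, up to 3 called genes of each of 32 lists, 20 panel genes, and the 3 smallest adjusted p of each class. Members, lists and rules were chosen with earlier results of these data known. On simulated data with 200 changed genes, the fit recovered 89% of changes of 2 log2 units and 27% of changes of 1. The number of arrays limits the precision of every value.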

Additional observations from a re-analysis of the deposited data

Results flagged for a closer look

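The tamoxifen change differed between low and negative cells in limma's test of the difference for 38 named genes. On the log2 scale the difference, low minus negative, was -5.71 for Gprasp2, -5.05 for Vtn, -4.91 for Hdc, -4.59 for Cel, -4.56 for Serpina7, -4.43 for Cpe, -4.22 for Hepacam2, -4.21 for Ceacam10, -4.14 for Ahsg, -4.09 for Agt, -3.88 for Slc18a2 and -3.45 for Ptf1a. It was -3.29 for Blm, -3.28 for Scg5, -2.93 for Hamp, -2.48 for Bhlha15, -2.25 for Cyp4v3, -2.20 for Ero1b, -1.87 for Selenom, -1.81 for Rap1gap2, -1.64 for Aqp4, -1.47 for Sel1l, -1.45 for Nupr1, -1.44 for Hyou1 and -0.82 for Dnajc3. Above 0 it was 3.45 for Mcpt2, 3.26 for Anxa3, 3.22 for Gsdmc3, 3.19 for Gsdmc2, 2.38 for Sytl2, 2.35 for Cyp3a13, 2.09 for Rflnb, 2.06 for Oit1, 2.05 for Retnla, 2.04 for Mmp7, 1.88 for Cpa3, 1.54 for Sdcbp2 and 1.18 for Zyx.

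Single arrays stood far from the others of their group in 8 of 110 groups of 4 checked, where chance alone marks about 1 in 20. In tamoxifen low cells, array 3 had 4.66 for Cel, 1.73 for Gsdmc2, 4.71 for Ptprc and 7.09 for Pdk4, and array 4 had 8.70 for Cpe. In tamoxifen negative cells, array 4 had 3.81 for Gsdmc2, 11.09 for Chga and 6.48 for Pdk4. Tamoxifen low array 3 and tamoxifen negative array 4 share a title number, and Pdk4 was low on both.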

How the results depend on the processing

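The direction of every named gene whose difference was called held under every alternative run. The 186 calls (38 higher, 148 lower) stayed within 1.5 times under cyclic loess (217), averaged probe sets (186), a trended robust fit (196), a filter on the dimmest 25% of genes (209), a 2-fold minimum (181) and the title number as a random block (238). Array weights gave 499 (147 higher, 352 lower). A fit of only the 14 arrays gave 291, of which 85 were higher. Leaving out each array in turn gave 71 to 386 calls, 12 to 76 higher and 57 to 328 lower. Leaving out tamoxifen low array 3 and tamoxifen negative array 4 together, an alternative chosen after seeing the data, gave 333 calls, 286 of them lower. The cause was not tested.

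Deviations from group means on low and negative arrays that share a title number correlated at -0.10, 0.17 and 0.41 in the 3 tamoxifen pairs. The 3 control pairs had 0.11, 0.23 and 0.15. Pairs of unlike number ran from -0.25 to 0.29 for tamoxifen and from -0.17 to 0.03 for controls. The shared number thus went with higher values in every control pair, but not in every tamoxifen pair. No label says what the number marks, so the pairing was not taken as given. With the title number as a fixed replicate block there were 154 calls, 118 of them shared, and 27 of the 38 called named genes kept their call. The other 11, with adjusted p from 0.050 to 0.11 under that block, were Mmp7, Dnajc3, Aqp4, Cpa3, Ero1b, Sel1l, Nupr1, Sdcbp2, Cyp4v3, Rap1gap2 and Selenom. With the replicate number as the block there were 199 calls. With the title number as a block in only the 14 arrays, an alternative chosen after seeing the data, there were 366 calls, 119 higher and 247 lower.

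Over all settings together, named genes lost a call 180 times and gained one 19 times, and list medians moved 28 times by more than the spread between arrays. The median of the ATF4 list was 0.20 under the title number block, against -0.19 without it. Genes near background in 1 population limit what the contrast can show there.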

Other observations

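Further called genes are given as single values, named after these were seen, with no fixed list or test behind the choice. Nalcn, Unc79 and Unc80, which encode parts of 1 sodium leak channel complex of excitable cells, had differences of -1.53, -1.94 and -1.54. Each of the 3 rose in negative cells alone, by 0.95, 1.67 and 1.16. Kif1a and Kif5c, motors that carry vesicles along microtubules, had -2.01 and -2.12, and Abcc8, a subunit of ATP-sensitive potassium channels, had -1.90. Amino acid transporter genes were called with differences below 0: Slc7a8 at -3.18, Slc38a3 at -2.43 and Slc38a5 at -2.11. Of these, Slc7a8 and Slc38a5 were called in low cells alone, as falls, and Slc38a3 in negative cells alone, as a rise. Slc38a3 had -1.05 in low cells (limma adjusted p = 0.054).

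Cbs and Cdo1, enzymes of cysteine synthesis and breakdown, fell in low cells alone, with differences of -2.66 and -2.43. Mogat1, an acyltransferase of triglyceride synthesis, and Slc5a5, the iodide transporter, fell in negative cells alone, with differences of 1.71 and 1.38. Gsta3, a glutathione transferase, rose in low cells alone by 1.08 and had -0.70 in negative cells, a difference of 1.78.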
